A study of Homo sapiens with 12 samples.

Results

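Oxidative phosphorylation was examined through the nuclear genes that encode the structural subunits of its complexes I to V. Protein-coding genes were taken by symbol: NDUFA, NDUFB, NDUFC, NDUFS and NDUFV genes without the NDUFAF assembly factors, SDHA to SDHD, UQCR genes and CYC1, COX4 to COX8 subunit genes, and ATP5F, ATP5M and ATP5P genes. Of 90 such genes, 82 reached a level of 1 TPM (transcripts per 1000000) or more in at least 3 of 12 libraries, among 15584 genes that did so in the whole table. They were 38 genes of complex I, 4 of complex II, 9 of complex III, 13 of complex IV and 18 of complex V. NDUFA4 and NDUFA4L2 were counted with complex IV, where the NDUFA4 protein is found, and so was COX7A2L, a factor that joins complex IV to complex III. The 82 include 2 readthrough genes, NDUFC2-KCTD14 and ATP5MF-PTCD1, whose reads cannot be cleanly told from those of NDUFC2 and ATP5MF.

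The libraries were poly(A)-selected RNA-seq of HCT116 and HCT15, established human colorectal carcinoma lines. The 4 groups were HCT116 cells overexpressing RNF26, HCT116 control cells, HCT15 cells overexpressing RNF26 and HCT15 control cells, with 3 libraries in each. RNF26 encodes a membrane-bound ubiquitin ligase that sits in the endoplasmic reticulum, and the series title ties it to proliferation, metastasis and the Wnt pathway. The labels name no vector, promoter or clone, and whether the 3 libraries of a group came from separate cultures is not said. The p-values therefore cover the variation among these libraries alone, part or all of which may be technical.

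Complex I takes electrons from NADH and complex II from succinate, and both pass them through ubiquinone to complex III. Cytochrome c carries them on to complex IV, which reduces oxygen, and the proton gradient that complexes I, III and IV build drives ATP synthesis by complex V. Within complexes I, III, IV and V a small set of catalytic subunits does the electron or proton chemistry and is surrounded by accessory subunits. Complex II is wholly nuclear encoded, while the other complexes also need subunits made from mitochondrial DNA, so cells balance mRNAs from 2 genomes.

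The RNF26 transcript was raised in both lines, at 299, 334 and 255 TPM in HCT116 RNF26 libraries, against 15.6, 18.4 and 16.5 TPM in HCT116 controls, and at 53.5, 54.6 and 54.4 TPM in HCT15 RNF26 libraries, against 26.7, 27.8 and 26.4 TPM in HCT15 controls. The log2 fold changes were 4.05 and 0.98 (SE 0.09 each, limma with Benjamini-Hochberg adjusted p = 1.21e-09 and 4.97e-05), and the exact permutation test of each line gave p = 0.1, two-sided, the smallest that 3 against 3 allows. Of 10 colorectal epithelial markers 8 passed the level limit, and they summed to 2803 to 3225 TPM in HCT116 RNF26 libraries, 3013 to 3305 TPM in HCT116 controls, 4638 to 4826 TPM in HCT15 RNF26 libraries and 5063 to 5893 TPM in HCT15 controls. Of the fibroblast, leukocyte, endothelial and muscle lists 1 of 6, 1 of 5, 0 of 4 and 1 of 4 markers passed, and no list exceeded 7.39 TPM in any library. The part of these sums in the results was not tested. One library stood apart: HCT15 control replicate 3 gave 25.9% of its TPM to the mitochondrial genome, against 16.4% and 17.7% in the other two HCT15 controls, and 17.7% to ribosomal protein genes, against 24.6% and 22.0%. In the HCT15 RNF26 libraries the mitochondrial share was 18.4% to 19.2% and the ribosomal protein share 26.6% to 27.9%. TPM sums to a fixed total, so these shares bear on every level below, and because TPM keeps no depth, the depth behind each value is unknown. In bulk RNA a change in the number of cells and a change in RNA per cell cannot be told apart.

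Subunit mRNAs were abundant, and within a complex their levels (TPM, which is per transcript length) spread widely although the proteins stand in fixed ratios. Mean levels over the 12 libraries ran in complex I up to 699.9 TPM for NDUFS5, an accessory subunit, with a median gene at 145 TPM and NDUFC2-KCTD14 lowest at 6.74 TPM. The 4 complex II genes were the closest together, from 72.5 TPM for SDHA, the flavoprotein that oxidises succinate, to 211 TPM for SDHB, the iron-sulphur subunit, a ratio of 2.90. In complex III the range was 48.5 TPM for UQCRFS1, the Rieske iron-sulphur protein, to 1108 TPM for UQCRH, the hinge protein that touches cytochrome c. The highest complex IV gene was COX6A1 at 940.3 TPM and the lowest was NDUFA4L2 at 2.08 TPM. In complex V, ATP5ME, a small membrane subunit, was highest at 841 TPM and ATP5MF-PTCD1 lowest at 4.99 TPM.

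The 8 subunit genes under the level limit were tissue-restricted or duplicate copies. COX6A2, COX7B2 and ATP5MGL were listed at 0 in all 12 libraries, and COX4I2, COX7A1, COX8C, COX6B2 and UQCRHL did not exceed 0.82 TPM in any library. Their widely expressed partners COX4I1, COX6A1, COX7A2, COX8A, COX7B, COX6B1 and UQCRH were all among the 82. The coding sequence of UQCRHL differs from that of UQCRH at 4 of 273 bases, so the division of reads between these 2 genes is uncertain.

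Summed over the members, subunit mRNA amounted to 25717, 25606 and 25560.0 TPM in HCT116 RNF26 libraries, 26291, 25441 and 25698 TPM in HCT116 controls, 20315, 19541 and 20258 TPM in HCT15 RNF26 libraries, and 19334, 21082 and 15425 TPM in HCT15 controls. The HCT15 libraries of both arms lay below all HCT116 libraries. HCT15 control replicate 3 was the lowest of the 12, and its 13 mitochondrial mRNAs summed to 239271 TPM, against 162604 and 152558 TPM in the other two controls. The mean sum in HCT15 RNF26 libraries was 1.08 times that of the controls, and 0.992 times without this library.

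**Figure D1:**
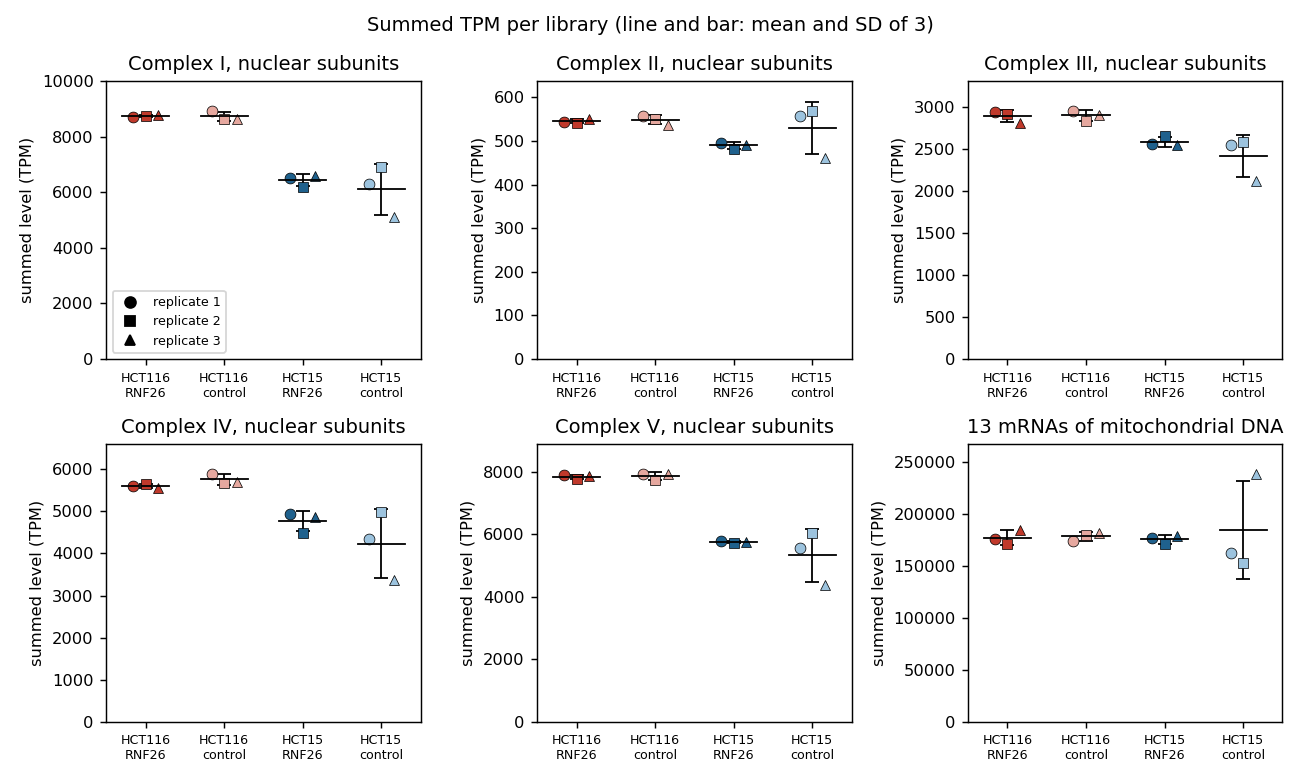
Summed level (TPM, vertical axis) of the nuclear subunit genes of each complex and of the 13 mRNAs of mitochondrial DNA, by group; points are libraries, with the shape giving the replicate number, and lines with bars are the mean and SD of 3. HCT15 libraries lie below HCT116 libraries in complexes I, III, IV and V, and HCT15 control replicate 3 is lowest in all 5 complexes and highest in mitochondrial mRNA, at 239271 TPM.

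In HCT116 no subunit gene passed the test for a difference with RNF26, although RNF26 mRNA was 17.6 times the control level. None of the 82 was called higher or lower by limma at a Benjamini-Hochberg adjusted p under 0.05, against 0.00642% of all tested genes called higher and 0% called lower. That share is 1 of 15584 genes, RNF26 itself, so no other tested gene was called either. The log2 fold changes were positive for 41 members and negative for 41, with an SD of 0.11 between them, and the medians by complex were 0.02, -0.00, -0.01, -0.03 and 0.02 for complexes I to V. At an unadjusted limma p under 0.05 there was 1 member of the 82, beside 657 of all 15584 tested genes. That member was ATP5MF-PTCD1, with 5.78, 6.56 and 6.38 TPM in RNF26 libraries, against 4.32, 2.68 and 5.25 TPM in controls. All RNF26 libraries lay above all controls, by a log2 fold change of 0.54 (SE 0.17, limma adjusted p = 1), in a readthrough gene whose own reads are uncertain.

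The genes that move most in HCT15 were not called in HCT116. UQCRC1, a matrix-facing core protein of complex III, had 200.1, 213 and 180.3 TPM in HCT116 RNF26 libraries, against 216, 216 and 204 TPM in HCT116 controls. SDHA had 62.1, 67.0 and 56.9 TPM in HCT116 RNF26 libraries, against 63.0, 64.6 and 57.3 TPM in HCT116 controls. ATP5F1E, the epsilon subunit in the central stalk of ATP synthase, had 64.7, 63.2 and 66.4 TPM in HCT116 RNF26 libraries, against 57.9, 50.7 and 59.6 TPM in HCT116 controls. The log2 fold changes were -0.10, 0.01 and 0.21 (limma adjusted p = 1 for each), the last with all RNF26 libraries above all controls. The 95% interval of the fold change of SDHA was -0.17 to 0.18 and that of ATP5F1E -0.04 to 0.45.

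The members with the smallest p of each complex give the size of the differences. In complex I these included NDUFA5, NDUFS8 and NDUFA11, at log2 fold changes of 0.15, 0.23 and -0.15. In complex III they were UQCRC2, CYC1, UQCRC1 and UQCRH, at -0.13, -0.17, -0.10 and 0.07. In complex IV they were COX6C, COX4I1, COX6A1 and COX7A2L, at -0.17, -0.10, -0.11 and -0.09. In complex V ATP5F1A and ATP5MC2 followed ATP5MF-PTCD1 and ATP5F1E, at -0.12 and 0.08. All had a limma adjusted p of 1, and no direction is read from them.

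In HCT15 the subunit genes moved in both directions with RNF26. Of the 82, 25 rose and 10 fell (limma, Benjamini-Hochberg adjusted p under 0.05), while 5.39% of all tested genes were called higher and 31.2% lower. Their median log2 fold change was 0.17, against -0.17 over all tested genes. Complex I had 11 members higher and 6 lower of 38, complex II 1 and 1 of 4, complex III 2 and 2 of 9, complex IV 5 and 0 of 13, and complex V 6 and 1 of 18. The median fold changes were 0.07, -0.11, 0.06, 0.34 and 0.21 for complexes I to V, each above the median of all genes. With median-ratio scaling, which moves the median of all genes to 0.00, 43 members were called higher and 6 lower, beside 14.4% and 16.7% of all genes. Without HCT15 control replicate 3 the calls were 17 higher and 14 lower, beside 4.19% and 28.8% of all genes, which keep 17 of the 25 and all 10, and the medians of complexes I and III were then -0.014 and -0.089. The median of complex II was 0.11 with median-ratio scaling. The rises were the less stable calls: a fit of the HCT15 libraries alone called 5 higher and 8 lower, beside 2.4% and 22.6% of all genes, and a fit without the level limit called 13 higher and 10 lower, beside 1.94% and 11.5%.

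**Figure D2:**
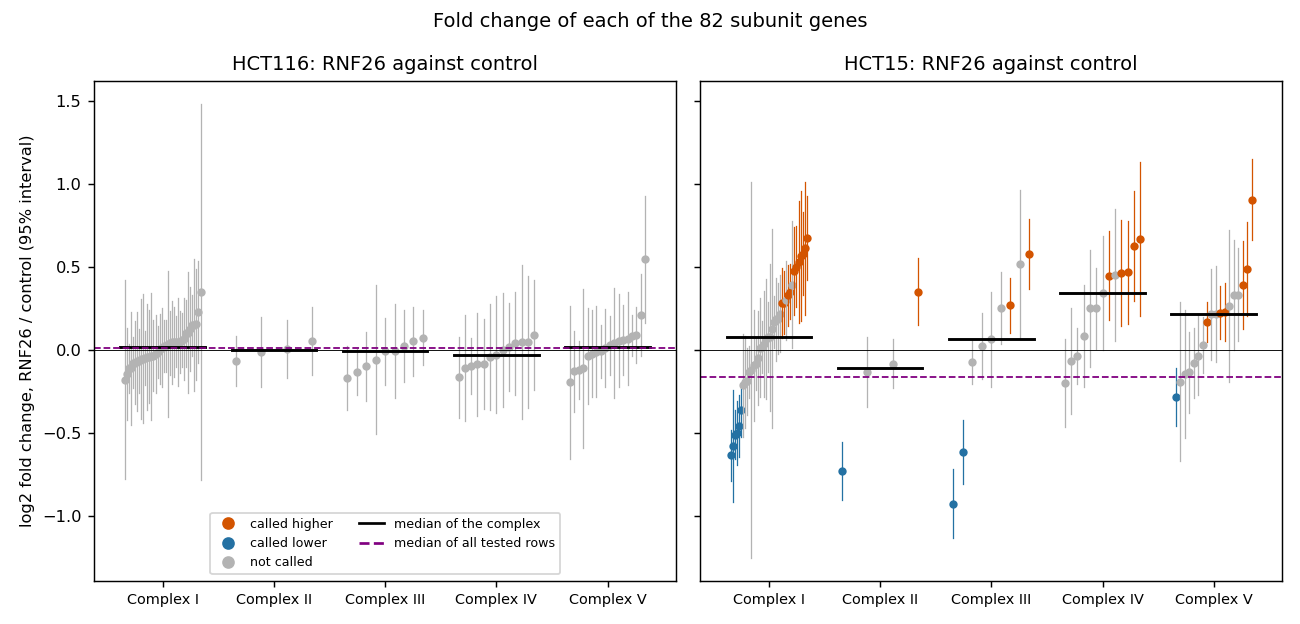
Log2 fold change of RNF26 over control (vertical axis) for each of the 82 subunit genes, ordered within complexes I to V, in HCT116 and HCT15; points are limma estimates, thin lines are 95% intervals, black lines are medians of a complex and the dashed line is the median of all tested genes. No HCT116 gene is called, while in HCT15 25 are called higher and 10 lower, and all 5 medians lie above the dashed line at -0.17.

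The falls included catalytic subunits of complexes I and III, the flavoprotein of complex II and the alpha subunit of complex V. UQCRC1 (chromosome 3, 48599002 to 48610976, GRCh38) had 154, 154 and 168 TPM in RNF26 libraries, against 353, 287 and 275 TPM in controls in HCT15. All RNF26 libraries were below all controls, with the largest fall of the 82, a log2 fold change of -0.93 (SE 0.09, adjusted p = 6.62e-05) by limma. CYC1, the haem-bearing cytochrome c1 of complex III, had 130.1, 128 and 141 TPM in RNF26 libraries, against 204, 232 and 181 TPM in controls. It fell by 0.62 on the log2 scale (SE 0.09, limma adjusted p = 0.000388), again with no overlap. UQCRFS1, the third redox subunit of complex III, did not pass the test, with 44.8, 48.0 and 51.7 TPM in RNF26 libraries, against 45.3, 57.9 and 37.1 TPM in controls.

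SDHA (chromosome 5, 218241 to 256700) had 61.9, 63.0 and 61.8 TPM in RNF26 libraries, against 114, 103 and 96.3 TPM in controls. The HCT15 RNF26 values lay within the range of the HCT116 libraries, and the 3 HCT15 controls stood above all other libraries. The log2 fold change was -0.73 (SE 0.08, adjusted p = 9.56e-05) by limma. SDHA has transcribed pseudogene copies, so part of its reads may be shared. SDHD, a membrane anchor of complex II, rose instead, with 136, 135 and 136 TPM in RNF26 libraries, against 113, 119.7 and 88.8 TPM in controls and a log2 fold change of 0.35 (SE 0.09, adjusted p = 0.0123). SDHB had 189.9, 175 and 179 TPM in RNF26 libraries, against 207, 228 and 167 TPM in controls, and SDHC, the other anchor, had 108, 108 and 114 TPM in RNF26 libraries, against 124, 119 and 109 TPM in controls; in both the arms overlapped, with limma adjusted p = 0.314 and 0.365.

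In complex I the falls included catalytic and accessory subunits. NDUFV1, which binds FMN and NADH, had 89.9, 92.2 and 93.8 TPM in RNF26 libraries, against 154, 148 and 129 TPM in controls, a log2 fold change of -0.64 (SE 0.07, adjusted p = 0.000102) by limma. NDUFS7, which carries the last iron-sulphur cluster before ubiquinone, had 74.6, 64.6 and 82.9 TPM in RNF26 libraries, against 118, 139 and 83.0 TPM in controls. Its lowest control nearly touched its highest RNF26 library, and its fold change was -0.58 (SE 0.15, adjusted p = 0.0126). Accessory subunits NDUFB10, NDUFS6 and NDUFA10 also fell, at -0.50, -0.46 and -0.36. With median-ratio scaling NDUFS7, NDUFB10 and NDUFA10 lost their call (limma adjusted p = 0.1, 0.0659 and 0.102). Catalytic subunits that did not pass the test included NDUFS1, NDUFS3 and NDUFV2, with log2 fold changes of -0.09, 0.06 and 0.17.

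ATP5F1A, the alpha subunit of the F1 head of ATP synthase, was the member of complex V that fell, with 459, 473 and 461 TPM in RNF26 libraries, against 604, 609 and 491 TPM in controls. Its log2 fold change was -0.28 (SE 0.08, adjusted p = 0.016) by limma, all RNF26 libraries lay below all controls, and the call was lost with median-ratio scaling (adjusted p = 0.547). The beta subunit ATP5F1B, which carries the catalytic sites, had 483, 486 and 469 TPM in RNF26 libraries, against 561, 613 and 425 TPM in controls, with overlapping arms and a log2 fold change of -0.14 (SE 0.11, adjusted p = 0.379).

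Of the 25 rises, 4 kept their call in all 25 alternative settings. ATP5F1E (chromosome 20, 59025467 to 59032382) had 45.7, 56.2 and 49.0 TPM in RNF26 libraries, against 25.5, 31.2 and 22.9 TPM in controls. All RNF26 libraries were above all controls, and the log2 fold change of 0.90 (SE 0.11, adjusted p = 0.000178) by limma was the largest rise of the 82. NDUFB4, an accessory subunit of the membrane arm of complex I, had 256, 269 and 251 TPM in RNF26 libraries, against 169, 195 and 129 TPM in controls, a log2 fold change of 0.67 (SE 0.11, adjusted p = 0.00107). NDUFC1, another membrane-arm subunit, had 102, 113 and 103 TPM in RNF26 libraries, against 64.6, 87.5 and 62.1 TPM in controls, a log2 fold change of 0.58 (SE 0.11, adjusted p = 0.00245). UQCRB, a small subunit of complex III near the ubiquinone site, had 413, 508 and 402 TPM in RNF26 libraries, against 290.1, 316 and 277 TPM in controls, a log2 fold change of 0.57 (SE 0.10, adjusted p = 0.000947). In these 4 genes, the ones that kept their call, the arms did not overlap.

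**Figure D3:**
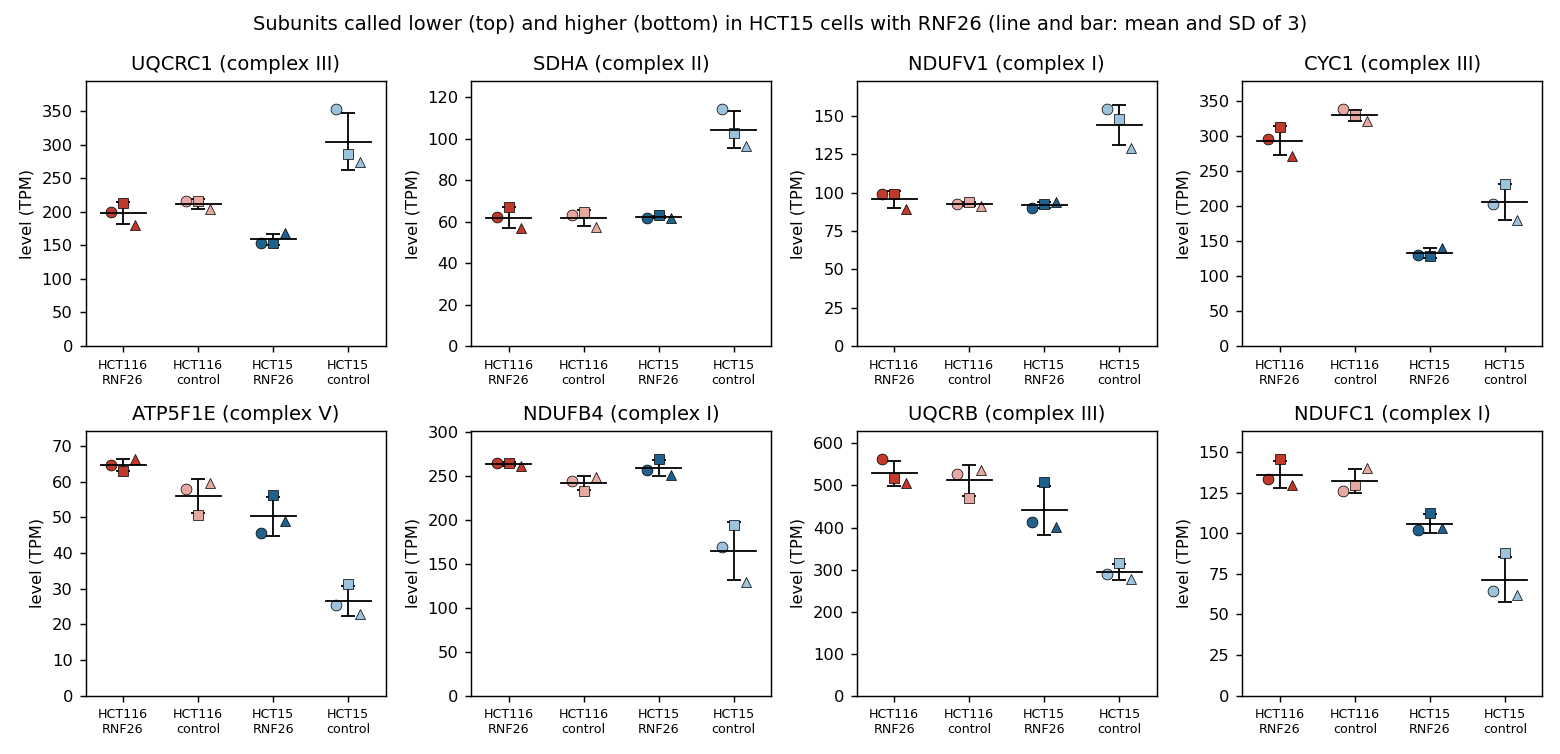
Level (TPM, vertical axis) of 4 subunits called lower (top) and 4 called higher (bottom) in HCT15 with RNF26, in all 4 groups; points are libraries, with the shape giving the replicate number, and lines with bars are the mean and SD of 3. In HCT15 the RNF26 and control libraries do not overlap in any of the 8, and none of the 8 is called in HCT116.

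Complex IV had only rises among its calls. NDUFA4 had 59.1, 65.7 and 49.6 TPM in RNF26 libraries, against 35.0, 53.8 and 24.8 TPM in controls, with one control above the lowest RNF26 library and a log2 fold change of 0.67 (SE 0.21, adjusted p = 0.0289) by limma. COX7C, a small membrane subunit, had 592, 608 and 588 TPM in RNF26 libraries, against 403, 499 and 286 TPM in controls, a log2 fold change of 0.63 (SE 0.15, adjusted p = 0.00767). COX6B1, which faces the intermembrane space, and COX5B, a zinc-binding matrix subunit, rose by 0.47 and 0.46, and COX7A2L by 0.45. COX4I1, the largest nuclear subunit of the complex, had 701, 659 and 686 TPM in RNF26 libraries, against 764, 727 and 618.45 TPM in controls, with overlapping arms. NDUFA4 and COX7A2L lost their call without HCT15 control replicate 3 (limma adjusted p = 0.0823 and 0.0527), and the median of the complex was then 0.15. With the GC and length correction the calls of NDUFA4, COX7C and, in complex III, UQCRH were lost (limma adjusted p = 0.211, 0.077 and 0.186).

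In complex V the further rises were ATP5F1C, the gamma subunit that turns in the F1 head, at 0.39, ATP5MJ, a small membrane subunit, at 0.49, ATP5PD and ATP5MG of the stalk and membrane part at 0.23 and 0.22, and ATP5MC2 at 0.17. The calls of ATP5PD, ATP5MG and ATP5MC2 were lost in 15, 9 and 12 of the 25 alternative settings, and the GC and length correction gave 0.052 for ATP5PD, 0.046 for ATP5MG and 0.15 for ATP5F1C. ATP5F1C had 382, 370.1 and 357 TPM in RNF26 libraries, against 284, 349 and 226 TPM in controls, and ATP5MJ had 160.1, 162 and 163 TPM in RNF26 libraries, against 126, 136 and 89.4 TPM in controls. No RNF26 library of either gene lay below a control. In complex III UQCRH rose by 0.27, with 1233, 1224 and 1219 TPM in RNF26 libraries, against 1104, 1071 and 893 TPM in controls. In complex I the other rises were all in accessory subunits, NDUFB1 at 0.61, NDUFB5 at 0.56, NDUFB6 at 0.53, NDUFS4 at 0.50, NDUFA1 at 0.47, NDUFB3 at 0.35, NDUFA5 at 0.33, NDUFB9 at 0.28 and NDUFA6 at 0.28. With the GC and length correction the calls of all of these but NDUFA1 were lost, with NDUFA5 at 0.043 and NDUFB3 at 0.086, and that of NDUFA6 was lost in 15 settings.

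HCT15 control replicate 3 was the lowest control for 24 of the 25 members that rose and for all 10 that fell, and for 79 of the 82 in all. The RNF26 libraries lay above all controls for 23 of the 82 members and below all controls for 10. Among all tested genes 7.23% lay above and 35.9% below in this way. Of the 25 rises 21 lay above and all 10 falls lay below. These calls were picked by the same contrast, so that count is no further evidence for them. Without this library the calls of NDUFA4, COX7A2L, NDUFB5, NDUFB6, NDUFA6, ATP5PD, ATP5MG and ATP5MC2 were lost (limma adjusted p = 0.0527 to 0.0996). Among the other rises the fold change moved by over 1.5 times for COX7C (0.41), NDUFB1 (0.34), ATP5MJ (0.30), NDUFA1 (0.30), COX6B1 (0.26), COX5B (0.26), ATP5F1C (0.23), SDHD (0.22), NDUFB9 (0.18) and UQCRH (0.17).

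The 11 listed core subunits of complexes I, III and V, such as NDUFV1, CYC1 and ATP5F1A, had 5 falls and no rise. Their median log2 fold change was -0.22. The 71 other members had 25 rises and 5 falls, with a median of 0.22. The core list holds the alpha subunit ATP5F1A and leaves out complex II. SDHA, which oxidises succinate, is thus among the falls of the other members, and the split is not one of catalytic against accessory subunits. Over all tested genes 5.39% rose and 31.2% fell, with a median of -0.17. The median of the listed core subunits lay near this background and that of the other members above it. The medians of the listed core subunits and of the other members in HCT116 were -0.06 and 0.01. GC content differed between the calls. The annotated transcripts of the members that rose had a median GC content of 45.1%, those not called 51.0% and those that fell 56.3%. Across the 82 members the HCT15 fold change and GC content had a Pearson r of -0.55 and a Spearman rho of -0.55, and across the 14849 tested genes with a known GC content they were -0.37 and -0.42. These are descriptions across genes that share libraries. After correcting for GC content and length together, 14 members were called higher and 12 lower, beside 4.28% and 33.1% of all genes tested, and r was then -0.23. Of the 25 rises 11 kept their call under that correction, as did 9 of the 10 falls.

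**Figure D4:**
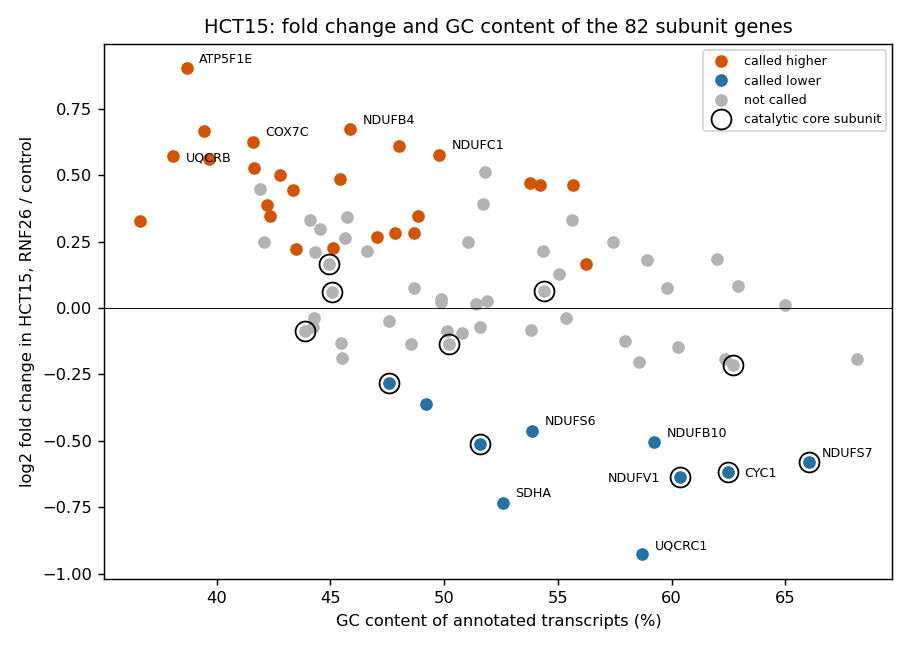
Log2 fold change of RNF26 over control in HCT15 (vertical axis) against the GC content of annotated transcripts (horizontal axis, %) for the 82 subunit genes. Circles mark the 11 listed core subunits of complexes I, III and V, which the key names catalytic core subunits. Called rises lie at a median GC content of 45.1% and called falls at 56.3%, and no circled gene is called higher.

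Promoters of these genes are known for sites of NRF1, of GABP and other ETS factors, and of YY1, which the RefSeq promoter sequences (GRCh38.p14, 250 bases before to 50 after the start) show directly. Of the 82 genes 66 had an entry. The letters GCATGCGC of NRF1 were in 13 of the 66 (19.7%), against 3.27% of all 27305 promoters and 5.56% of those of tested genes, on either strand. The letters CCGGAAG of GABP were in 20 (30.3%), against 10.7% and 19.6%. The letters AAGATGGCG of YY1 were in 8 (12.1%), against 1.85% and 3.98%. The GABP and YY1 letters can share AAG where they adjoin, and a match describes sequence only. SDHB and ATP5PF held all 3, and UQCRC1, the member with the largest fall, held that of YY1 just after its start site, so these 3 are shown 5′ to 3′ on the gene's strand with the matched letters in capitals.
UQCRC1, chr3:48609597-48609896, minus strand: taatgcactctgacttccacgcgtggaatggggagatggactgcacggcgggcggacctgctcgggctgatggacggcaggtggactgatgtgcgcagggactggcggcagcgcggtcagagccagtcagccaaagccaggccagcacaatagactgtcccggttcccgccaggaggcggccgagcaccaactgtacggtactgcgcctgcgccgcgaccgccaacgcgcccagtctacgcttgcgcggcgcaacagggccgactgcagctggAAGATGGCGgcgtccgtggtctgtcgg
SDHB, chr1:17053983-17054282, minus strand: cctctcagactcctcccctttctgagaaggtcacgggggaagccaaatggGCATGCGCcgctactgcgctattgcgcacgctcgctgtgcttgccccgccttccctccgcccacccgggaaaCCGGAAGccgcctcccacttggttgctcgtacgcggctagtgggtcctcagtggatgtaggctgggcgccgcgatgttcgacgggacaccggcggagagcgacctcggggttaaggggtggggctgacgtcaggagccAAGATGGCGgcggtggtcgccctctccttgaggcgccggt
ATP5PF, chr21:25735005-25735304, minus strand: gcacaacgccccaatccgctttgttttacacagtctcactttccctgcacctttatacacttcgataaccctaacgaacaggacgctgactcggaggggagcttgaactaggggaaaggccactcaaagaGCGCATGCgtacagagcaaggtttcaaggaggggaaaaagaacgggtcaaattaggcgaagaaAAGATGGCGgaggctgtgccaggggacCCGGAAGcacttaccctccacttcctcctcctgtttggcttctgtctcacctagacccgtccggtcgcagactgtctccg

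The motif counts were small on each side of the HCT15 calls and were not tested. The NRF1 letters were in 6 of 21 promoters of members that rose and 2 of 8 of those that fell, the GABP letters in 7 and 0, and the YY1 letters in 2 and 2. SDHB and ATP5PF, with all 3, were not called in HCT15, at log2 fold changes of -0.13 and -0.04. ATP5F1E, with the largest rise, held none of the 3.

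The RNF26 effect differed between the lines for 11 members by a direct test. The limma contrast of the 2 effects (HCT15 minus HCT116) called 4 higher and 7 lower, beside 1.8% and 18.7% of all tested genes. NDUFC1, NDUFB4, UQCRB and ATP5F1E were higher, at 0.53, 0.55, 0.53 and 0.70 (SE 0.16, adjusted p = 0.0124). UQCRC1, SDHA and NDUFV1 were lowest, at -0.83 (SE 0.13, adjusted p = 0.00299), -0.74 (SE 0.11, adjusted p = 0.00242) and -0.68 (SE 0.10, adjusted p = 0.00204). NDUFS6, CYC1 and NDUFB10 followed at -0.51, -0.45 and -0.44. No complex IV member was called, COX7A2L coming nearest at 0.53 (SE 0.17, adjusted p = 0.0508), followed by COX6C, COX7C and COX5B at 0.42, 0.54 and 0.51. RNF26 itself differed by a log2 value of -3.07 between these effects, and with median-ratio scaling the contrast called 23 members higher and 3 lower, beside 5.99% and 7.35% of all genes. Without HCT15 control replicate 3 it called 4 higher and 11 lower, beside 1.73% and 17.3%.

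Between the lines more subunit mRNAs were called lower than higher in HCT15. In control cells 14 members were higher and 47 lower in HCT15 than in HCT116, beside 43.6% and 26% of all tested genes (limma, Benjamini-Hochberg adjusted p under 0.05). In RNF26 cells, which are other libraries, 12 were higher and 38 lower, beside 34.1% and 33.8%. Of the lower calls 34 were shared, 72.3% of those in control cells and 89.5% of those in RNF26 cells, and 7 of the higher calls were shared, of 14 in control cells and 12 in RNF26 cells. Across the 82 members the 2 line differences had a Pearson r and a Spearman rho of 0.82, a description over genes. Neither the shared calls nor this r is set beside the same figure over all tested genes. They are therefore not read as particular to subunit genes. The member median was -0.41 in control cells and -0.27 in RNF26 cells, against 0.22 and 0.01 over all tested genes. UQCRC1 was higher in HCT15 control cells and lower in HCT15 RNF26 cells than in their HCT116 counterparts, by log2 differences of 0.51 and -0.31. The call in RNF26 cells was lost with quantile normalization and without HCT116 RNF26 replicate 2 (limma adjusted p = 0.306 and 0.0513). Without HCT15 control replicate 3, 19 members were higher and 43 lower in control cells, beside 42.9% and 24.9% of all genes.

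Among the largest line differences were accessory subunits of complex I and the c subunit of complex V. NDUFC2, of the membrane arm, had 113, 106 and 98.6 TPM in HCT15 controls, against 296, 310.0 and 294 TPM in HCT116 controls, and 125, 94.2 and 117 TPM in HCT15 RNF26 libraries, against 304, 298 and 328 TPM in HCT116 RNF26 libraries. NDUFS5 had 373, 339 and 397 TPM in HCT15 RNF26 libraries, against 1003, 994 and 1063 TPM in HCT116 RNF26 libraries. NDUFB9 differed by -1.56 on the log2 scale in control cells and -1.32 in RNF26 cells. In complex III UQCR10 differed by -0.96 and -0.93, UQCRQ by -1.24 and -0.67, and CYC1 by -0.69 and -1.14, in the same order. In complex IV COX6C differed by -0.90 and -0.48. In complex V ATP5F1B differed by -0.92 and -0.93. In complex II the differences were SDHA 0.75 in control cells and 0.01 in RNF26 cells, SDHB -0.22 and -0.34, SDHC -0.12 and -0.14, and SDHD -0.26 and 0.03; of these SDHA and SDHD were called in control cells and SDHB in RNF26 cells.

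The c subunit forms the rotating ring of ATP synthase and is encoded by 3 genes whose products differ in the import sequence that is cut off, so the same protein can come from any of them. The stretch below runs back from the stop codon over the 77 codons that specify the same residues in all 3 genes, from GENCODE transcripts of GRCh38. It is shown because the genes encode 1 protein there and still differ in sequence. Capitals mark bases that differ from ATP5MC1.
ATP5MC1, chromosome 17: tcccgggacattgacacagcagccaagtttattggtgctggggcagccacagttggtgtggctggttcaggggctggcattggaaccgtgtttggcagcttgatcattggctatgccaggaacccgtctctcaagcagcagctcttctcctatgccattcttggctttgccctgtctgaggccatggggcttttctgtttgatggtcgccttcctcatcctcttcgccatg
ATP5MC2, chromosome 12: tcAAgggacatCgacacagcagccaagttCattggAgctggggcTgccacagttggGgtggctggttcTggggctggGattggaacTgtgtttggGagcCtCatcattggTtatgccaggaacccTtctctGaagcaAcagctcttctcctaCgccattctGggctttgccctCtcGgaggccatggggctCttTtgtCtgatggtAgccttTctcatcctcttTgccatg
ATP5MC3, chromosome 2: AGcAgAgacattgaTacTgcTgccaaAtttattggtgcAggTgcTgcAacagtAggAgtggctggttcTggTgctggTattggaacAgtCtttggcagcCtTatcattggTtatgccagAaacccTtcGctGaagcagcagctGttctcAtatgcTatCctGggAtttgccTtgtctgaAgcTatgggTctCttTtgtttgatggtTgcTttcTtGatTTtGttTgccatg
ATP5MC2 differs from ATP5MC1 at 27 of these 231 bases and ATP5MC3 at 46, and no identical run between any 2 of the genes exceeds 17 bases.

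All 3 c subunit genes were expressed in both lines, in different proportions. ATP5MC1 had 145, 148 and 117 TPM in HCT15 controls, against 411, 397 and 384 TPM in HCT116 controls, and 126, 119.9 and 141 TPM in HCT15 RNF26 libraries, against 431, 382 and 428 TPM in HCT116 RNF26 libraries. The HCT15 levels were lower without overlap, by log2 differences of -1.54 (SE 0.10, adjusted p = 6.94e-08) and -1.67 (SE 0.10, adjusted p = 3.45e-08) by limma. ATP5MC2 ran the other way, with 505, 535 and 493 TPM in HCT15 controls, against 331, 310.3 and 330.1 TPM in HCT116 controls, and differences of 0.66 (SE 0.06, adjusted p = 9.64e-07) and 0.74 (SE 0.06, adjusted p = 3.70e-07). ATP5MC3 was lower in HCT15, at -1.28 and -0.82. Of the summed c subunit mRNA, ATP5MC2 made up 63.9% ± 4.67 in HCT15 controls, against 29.8% ± 0.369 in HCT116 controls, and 64.9% ± 1.78 in HCT15 RNF26 libraries, against 31.8% ± 1.02 in HCT116 RNF26 libraries (SD, n = 3 each). The sum of the 3 genes was 805 ± 93.8 TPM in HCT15 controls, against 1088 ± 32.8 TPM in HCT116 controls, and 884 ± 11.5 TPM in HCT15 RNF26 libraries, against 1077 ± 27.8 TPM in HCT116 RNF26 libraries (SD, n = 3 each).

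**Figure D5:**
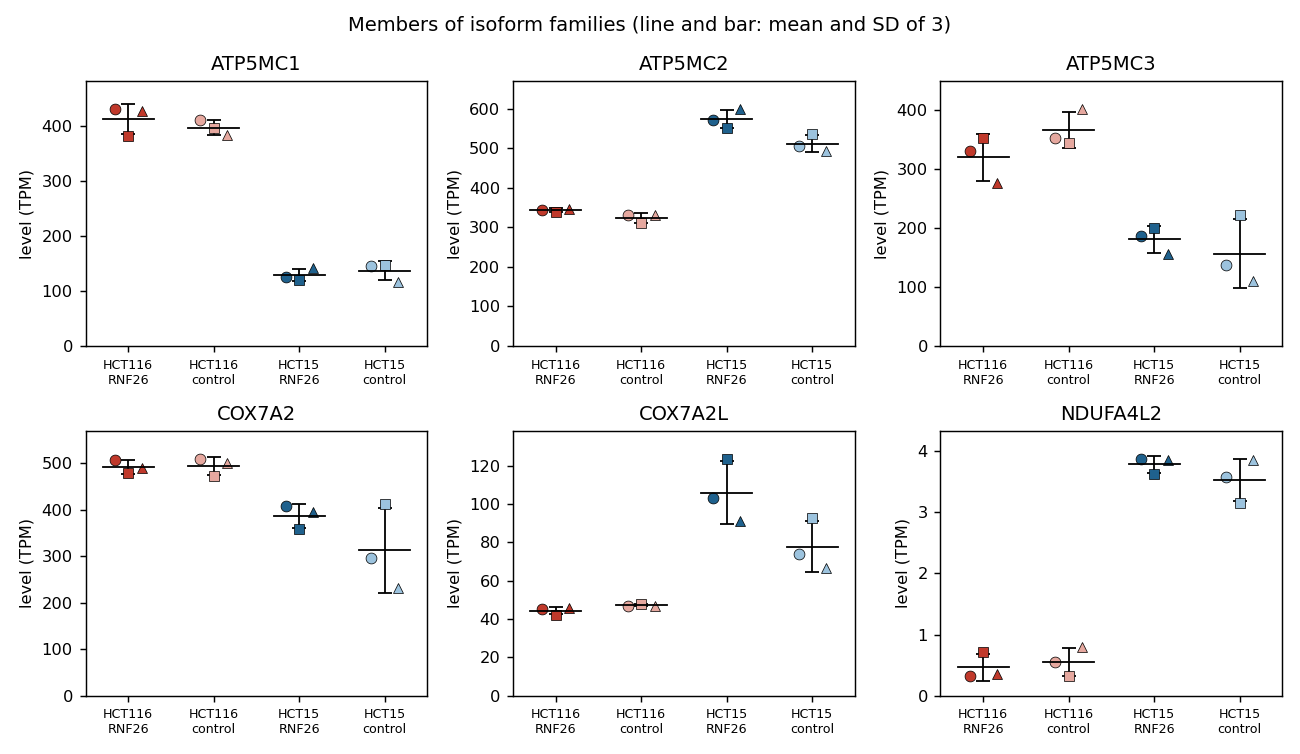
Level (TPM, vertical axis) of 6 genes of isoform families in the 4 groups; points are libraries, with the shape giving the replicate number, and lines with bars are the mean and SD of 3. ATP5MC2, COX7A2L and NDUFA4L2 are higher in both HCT15 groups than in both HCT116 groups, while ATP5MC1 and ATP5MC3 are lower, and COX7A2 was called lower in control cells and not in RNF26 cells.

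Other isoform families also separated the lines. COX7A2L had 74.0, 92.5 and 66.7 TPM in HCT15 controls, against 47.0, 47.8 and 47.0 TPM in HCT116 controls, and 103, 124 and 91.3 TPM in HCT15 RNF26 libraries, against 45.5, 42.1 and 45.8 TPM in HCT116 RNF26 libraries. No HCT15 library was below an HCT116 library, and the log2 differences were 0.69 (SE 0.12, adjusted p = 0.000358) and 1.23 (SE 0.12, adjusted p = 3.85e-06) by limma. COX7A2, its partner, was lower in HCT15 control cells at -0.70 (SE 0.16, adjusted p = 0.00195) and not called in RNF26 cells at -0.35 (SE 0.16, adjusted p = 0.0679). NDUFA4L2 is a relative of NDUFA4 known as a target of hypoxia signalling. It had 3.57, 3.16 and 3.85 TPM in HCT15 controls, against 0.55, 0.33 and 0.79 TPM in HCT116 controls. The log2(TPM + 1) difference was 1.55. NDUFA4L2 stayed under 1 TPM in every HCT116 library and passed the level limit only through HCT15, so its line test is given no weight. It remained the lowest complex IV gene, at 9.42% ± 3.95 of the pair with NDUFA4 in HCT15 controls, against 1.15% ± 0.412 in HCT116 controls (SD, n = 3 each).

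Partner genes that are no structural subunits also moved both ways in HCT15, and none was called in HCT116. Of the 13 mRNAs of mitochondrial DNA, MT-ND3 and MT-CO3 rose and 11 were not called. MT-ND3 had 12908, 12799 and 14541 TPM in RNF26 libraries, against 9671, 8823 and 10899 TPM in controls, a log2 fold change of 0.46 (SE 0.10, adjusted p = 0.00441) by limma. Of 16 complex I assembly factors 1 rose and 3 fell, among them ACAD9, with 26.3, 26.1 and 25.9 TPM in RNF26 libraries, against 51.8, 46.9 and 49.5 TPM in controls. Of 24 complex IV assembly factors 5 rose and 4 fell, with COX16 at 0.67 and COA6 at 0.64 against COX10 at -0.57 and SCO1 at -0.49. No complex II factor of 4 was called, 2 of 6 complex III factors fell, and of 5 complex V genes ATP5IF1, the inhibitor of ATP hydrolysis, rose by 0.43 while ATPAF2 fell by 0.64.

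Of 12 electron carrier genes, CYCS, which encodes cytochrome c, rose by 0.28 and 8 of the ubiquinone synthesis genes fell, COQ8B at -0.68 and COQ6 at -0.63 most. Of 12 regulators 11 passed the level limit, of which 5 fell and none rose. MYC had 61.4, 65.6 and 65.6 TPM in RNF26 libraries, against 136, 113 and 142 TPM in controls, a log2 fold change of -1.001 (SE 0.09, adjusted p = 4.33e-05) by limma. YY1 had 35.0, 37.6 and 39.1 TPM in RNF26 libraries, against 67.8, 62.0 and 82.2 TPM in controls, at -0.90, and NRF1 and GABPB1 were at -0.44 and -0.53. PPARGC1A, a coactivator of mitochondrial genes, did not exceed 0.33 TPM in any library. Of 16 other mitochondrial proteins 1 rose and 8 fell, MDH2 of the citric acid cycle at -0.58 and OGDH at -0.84. These shares stand beside 5.39% higher and 31.2% lower of all tested genes, and against a median of -0.17 over all tested genes. The list medians were 0.11, -0.14, -0.16, 0.12 and 0.11 for the assembly lists of complexes I to V, -0.00 for mitochondrial mRNA, -0.33 for electron carriers, -0.17 for regulators and -0.18 for the other mitochondrial proteins.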

How the data were processed

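The 12 libraries were measured by poly(A)-selected, paired-end RNA-seq with a stranded kit, per the labels' protocols. The authors deposited 1 table of TPM values. The submitters' processing notes name fastp, HISAT2, StringTie, RSEM and the build GRCh38, without roles. For the annotation release, the use of strand in counting and the read depth, the sources used here give nothing. Of 63036 features 62697 had a symbol. No 2 libraries were identical, and the closest pair differed in 24770 features.

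Features reaching 1 TPM in 3 or more of the 12 libraries (15584) were fitted as log2(TPM + 1) with limma 3.58.1 in R 4.3.3, with a mean per group and an intensity trend, 8 residual degrees of freedom, and Benjamini-Hochberg adjustment over all 15584. Genes were called at an adjusted p under 0.05. The fit gives each gene 1 spread shared by all 4 groups, so its SE is the same in HCT116 and HCT15. Fold changes are on the log2(TPM + 1) scale, which understates those of low genes. The fit was also run on simulated data, whose outcome is not given here and lends no weight to the calls. GC content and length came from annotated GENCODE transcripts, known for 14849 features and all 82 members. Alternatives changed the pseudocount, the filter, the scaling, the GC and length correction, the fit, the block and each library.

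The members and lists were chosen with earlier results of these data known. Genes are named by rule. In each complex these are the largest called rise and the 4 smallest p for RNF26 contrasts, the 2 largest line differences, and the highest and lowest level. Complex II, isoform families, the listed core subunits of complexes I, III and V, and readthrough genes are named as well. Other called members are named with their fold changes, having been chosen after their values were seen. One member enters the fits and counts and is not reported here by name. Replicate numbers were not treated as pairs.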

Additional observations from a re-analysis of the deposited data

Results flagged for a closer look

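The RNF26 effect differed between HCT15 and HCT116 for the 10 members given here in the limma contrast of the effects (HCT15 minus HCT116, log2). It was lower in HCT15 for UQCRC1 by -0.83, SDHA by -0.74, NDUFV1 by -0.68, NDUFS6 by -0.51, CYC1 by -0.45 and NDUFB10 by -0.44. It was higher in HCT15 for UQCRB by 0.53, NDUFC1 by 0.53, NDUFB4 by 0.55 and ATP5F1E by 0.70. In this contrast 4 of the 82 members were called higher and 7 lower, beside 1.8% and 18.7% of all tested genes. The call held in all 24 alternative settings for ATP5F1E, NDUFV1, SDHA and UQCRC1. RNF26 mRNA itself was raised 17.6 times in HCT116 and 2.01 times in HCT15, and the part of this difference in the result was not tested.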

How the results depend on the processing

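In HCT116 no member was called under any alternative, and in no comparison was a called member called the other way by an alternative. In HCT15 the 35 calls (25 higher, 10 lower) became 23 without a filter on low values (13 and 10) and 13 with a separate fit of each line (5 and 8), nearly all of the loss being in the rises, and 22 to 51 when each library was left out, lowest without HCT15 RNF26 replicate 1 and highest without HCT15 control replicate 2. The 11 calls of the difference became 6 without a filter, 26 with median-ratio scaling, 20 with mitochondrial and ribosomal protein genes removed, 25 with median-ratio scaling and without HCT15 control replicate 3 (chosen after seeing the data), and 6 to 32 when each library was left out. Line calls ranged from 53 to 69 in control cells and 40 to 57 in RNF26 cells over left-out libraries. With median-ratio scaling the HCT15 medians of complexes I to V were 0.29, 0.11, 0.28, 0.56 and 0.43. That of complex II was 0.024 with quantile normalization, 0.012 with mitochondrial and ribosomal protein genes removed, -0.21 with GC content and length correction, and 0.032 with median-ratio scaling and without HCT15 control replicate 3. Leaving out libraries gave -0.014 to 0.26 for complex I, -0.089 to 0.22 for III and 0.15 to 0.56 for IV. The line difference in control cells changed sign for NDUFS4 (-0.10 without HCT15 control replicate 2 to 0.16 without HCT15 control replicate 3) and UQCRH (0.22 with quantile normalization). The causes were not tested. The departures of each library from its group mean, not the levels, were compared by correlation between RNF26 and control libraries. For the same replicate number r was -0.04 to -0.03 in HCT116 and 0.01 to 0.15 in HCT15. For different numbers r was -0.03 to 0.06 in HCT116 and -0.12 to 0.11 in HCT15. With 3 libraries in a group these values cannot settle whether the numbers pair libraries. The replicate block gave 22 higher and 10 lower calls in HCT15, 5 and 8 in the difference, and 0 in HCT116. TPM keeps no depth, so precision rests on the spread among libraries within groups, pooled over all 12 libraries. The SD of the summed members was 80.8 TPM in HCT116 RNF26 libraries and 436 TPM in HCT116 controls. In HCT15 it was 431 TPM in RNF26 libraries and 2897 TPM in controls. Tests within HCT15 therefore also draw on the HCT116 spread, which the separate fit of each line does not.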
